A study of Mus musculus with 12 samples.

Results

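Tissue residency and adhesion were followed through 8 genes, Itgae, Zfp683, Cd69, Cxcr6, Ahr, Itgal, Itgav and Icam1, which were picked by name from the 773 probes of a NanoString nCounter panel of mouse immune exhaustion genes. CD8+ T cells had been sorted from MC38 tumours, a mouse colon carcinoma line grown in C57BL/6J mice, after tumour digestion and enrichment on CD45. All 12 samples came from such tumours and fell into 4 groups of 3, named SRT, CRT, SRT-like and Nontreated. The first 3 are modes of radiotherapy whose abbreviations the labels do not spell out, with radiation of 20 Gy given once tumours measured 40 to 100 mm3, and Nontreated is the control. The labels give no age or sex of the mice, no time between radiation and sorting, and no word on whether replicates are separate mice. The p-values therefore measure only how far these samples spread, and part or all of that spread may be technical.

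Resident memory T cells stay in a tissue instead of returning to blood and lymph. They hold on through integrins and through a block on egress: CD103, the product of Itgae, pairs with the beta 7 chain and binds E-cadherin on epithelial cells, while CD69 binds the sphingosine phosphate receptor S1PR1 and takes it off the cell surface. Hobit, the product of Zfp683, is a transcription factor of resident lymphocytes in mice, and Ahr is a ligand-activated transcription factor that resident T cells of mouse skin and gut need to persist. CXCR6 is the receptor of the chemokine CXCL16. Itgal encodes the alpha chain of LFA-1, whose ligand ICAM-1 is encoded by Icam1, and Itgav encodes the alpha V chain, which pairs with several beta chains and takes part in the activation of latent TGF-beta.

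The values are log2 values as the authors normalized them. Differences between groups are differences of log2 means, given with the standard error (SE) of a limma fit over all 12 samples and with p-values adjusted by Benjamini-Hochberg over the 773 probes. A gene counted as called when its adjusted p was below 0.05. Recovered molecule totals ran from 118694 to 467904 per sample, lowest in Nontreated replicate 3, and replicates of a group correlated with Pearson's r of 0.960 to 0.983 across probes, which are not independent replicates. Background was the mean plus 2 SD of 26 probes for genes of other tissues or a virus. The sample numbers run such that each of SRT, CRT and Nontreated is spread over them while the SRT-like samples hold the last 3, so the SRT-like mode and a late position cannot be told apart. All 6 measured probes of the CD8 T cell list (Cd3d, Cd3e, Cd3g, Cd8a, Cd8b1, Trac) were above background in all 12 samples, and Cd4 was above it in 1. Log2 of the summed linear values of the 6 was 13.62 to 14.04 for SRT and 13.64 to 13.91 for CRT. It was 13.87 to 14.07 for SRT-like and 13.53 to 13.93 for Nontreated. In SRT-like, 6 of the 6 averaged above Nontreated and 5 of the 6 above CRT, with 0 called. Cd8a was at 11.00 to 11.19 in SRT-like and 10.53 to 10.62 in CRT, and 18.5% of all probes had no overlap between these groups. In sorted cells measured as a bulk, fewer cells of a type and less RNA per cell cannot be told apart.

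The 8 genes differed in how the 3 modes stood to Nontreated. Itgae and Zfp683 had their highest means in SRT-like samples and their lowest in CRT samples. Cd69 averaged higher in each mode than in Nontreated, most in CRT. Ahr was highest in SRT and Itgav in SRT-like, while Cxcr6 and Itgal overlapped across all 4 groups. None of these differences passed the threshold over all probes, so they are given as values.

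**Figure D1:**
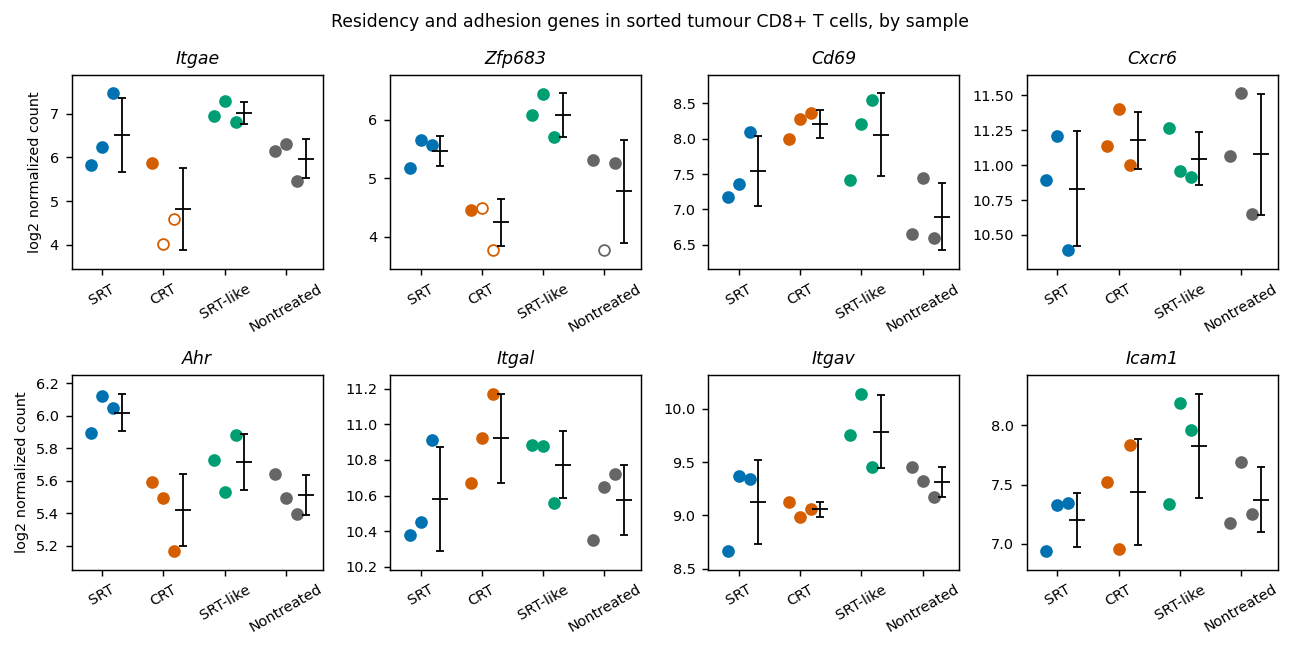
Log2 normalized value (vertical axis) of each of the 8 genes in every sample, with 1 panel per gene, groups along the horizontal axis, a point per sample, open where it was not above background, and the group mean with its SD beside the points. Itgae and Zfp683 lie between 5.71 and 7.29 in SRT-like samples and between 3.78 and 5.86 in CRT samples.

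Itgae, which encodes CD103, was at 5.83, 6.24 and 7.46 in the SRT samples, at 5.86, 4.01 and 4.59 in CRT, and at 6.95, 7.29 and 6.81 in SRT-like, against 6.14, 6.30 and 5.46 in Nontreated (log2 values, replicates 1 to 3). All SRT-like samples lay above all Nontreated samples, whereas the CRT and SRT groups each overlapped Nontreated. The group means were 6.51 ± 0.85 for SRT, 4.82 ± 0.95 for CRT, 7.01 ± 0.25 for SRT-like and 5.97 ± 0.44 for Nontreated (SD, n = 3 each). CRT differed from Nontreated by -1.15 ± 0.50 (SE), with an adjusted p of 0.315 in limma, and by -0.69 when values under the background level were set to that level. SRT-like differed from Nontreated by 1.05 ± 0.50 (limma, adjusted p = 0.504). The difference of SRT from Nontreated, 0.55 ± 0.50 (limma, adjusted p = 0.699), was 0.070 without SRT replicate 3, the highest sample of that group.

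The CRT values of Itgae rest on few molecules. Replicates 2 and 3 of CRT were not above background, with 10 and 14 molecules, for which exact Poisson intervals of 95% run from 4.80 to 18.4 and from 7.65 to 23.5 and cover counting error only. CRT replicate 1 had 71 molecules and was above background. In SRT-like samples the probe had 200, 165 and 116 molecules, and in Nontreated 113, 150 and 22, so that the shallowest Nontreated sample was also thinly counted.

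Zfp683, which encodes Hobit, was at 5.17, 5.66 and 5.56 in SRT, at 4.47, 4.50 and 3.78 in CRT, and at 6.09, 6.44 and 5.71 in SRT-like, against 5.32, 3.77 and 5.25 in Nontreated. The SRT-like samples were again all above the Nontreated samples, and Nontreated replicate 2 lay well under the other two of its group. Means were 5.46 ± 0.26 for SRT, 4.25 ± 0.41 for CRT, 6.08 ± 0.37 for SRT-like and 4.78 ± 0.88 for Nontreated (SD, n = 3 each). SRT-like exceeded Nontreated by 1.30 ± 0.40 (SE), 2.46-fold, with a limma p of 0.0082 before and 0.255 after adjustment. Without Nontreated replicate 2 this difference was 0.79. For CRT the difference from Nontreated was -0.53 ± 0.40 (limma, adjusted p = 0.563), and it was 0.022 when values under the background level were set to that level. Replicates 2 and 3 of CRT and replicate 2 of Nontreated were not above background for this probe, with 14, 8 and 26 molecules.

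**Figure D2:**
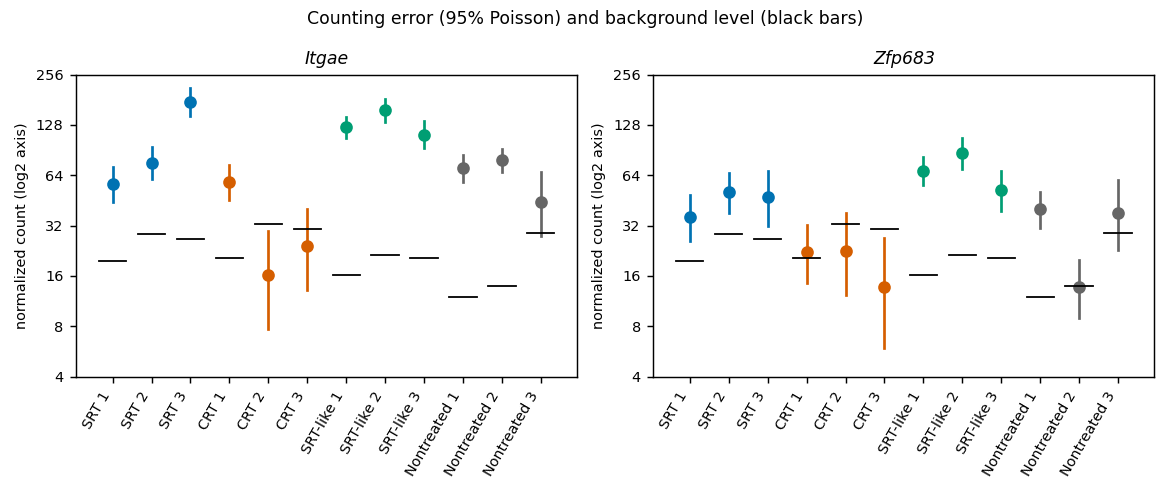
Linear normalized value (log axis) of Itgae and Zfp683 in every sample, with the exact Poisson interval of 95% of its molecule count as a bar and the sample's background level as a dash. For Itgae the points of CRT replicates 2 and 3 lie under the background level, and for Zfp683 those of CRT replicates 2 and 3 and Nontreated replicate 2 do.

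Cd69, an activation antigen that retains T cells in tissue, was at 7.17, 7.36 and 8.10 in SRT, at 7.99, 8.28 and 8.36 in CRT, and at 7.42, 8.20 and 8.55 in SRT-like, against 6.65, 7.44 and 6.59 in Nontreated. The CRT samples lay above every Nontreated sample, while SRT replicates 1 and 2 and SRT-like replicate 1 lay below the highest Nontreated sample. The means were 7.54 ± 0.49 for SRT, 8.21 ± 0.20 for CRT, 8.06 ± 0.58 for SRT-like and 6.90 ± 0.48 for Nontreated (SD, n = 3 each). CRT exceeded Nontreated by 1.32 ± 0.35 (SE), 2.49-fold, with a limma p of 0.00344 before and 0.083 after adjustment, which placed Cd69 at rank 32 of the 773 probes. This comparison stood close to the threshold and depended on the method: the adjusted p was 0.0432 with voom on the recovered molecules (difference 1.10), 0.0320 with a block by run of sample numbers (difference 1.48), 0.0184 with a trended robust fit, 0.0306 with probes above background only, and 0.229 after centring each sample on its median (difference 0.99). SRT-like exceeded Nontreated by 1.16 ± 0.35 (limma, adjusted p = 0.255) and SRT by 0.65 ± 0.35 (limma, adjusted p = 0.501). For the mean of the 3 modes the difference from Nontreated was 1.04 ± 0.29 (limma, adjusted p = 0.104), and it was called when SRT-like replicate 1 was left out (adjusted p = 0.0468).

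Cxcr6 was high in every sample, at 10.90, 11.21 and 10.39 in SRT, at 11.13, 11.40 and 11.00 in CRT, and at 11.27, 10.96 and 10.92 in SRT-like, against 11.06, 11.51 and 10.65 in Nontreated. All 4 groups overlapped on this gene. With 802 to 5576 molecules per sample it was counted well, and its differences from Nontreated were -0.24 ± 0.27 for SRT, 0.10 ± 0.27 for CRT and -0.029 ± 0.27 for SRT-like (SE; limma, adjusted p = 0.738, 0.898 and 0.978). The 95% interval of each covers 0 on both sides.

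Ahr, the aryl hydrocarbon receptor, was at 5.89, 6.12 and 6.05 in SRT, at 5.60, 5.50 and 5.17 in CRT, and at 5.73, 5.53 and 5.88 in SRT-like, against 5.64, 5.50 and 5.40 in Nontreated. The SRT samples lay above every other sample of the study, by a narrow margin over the highest SRT-like sample. SRT averaged 6.02 ± 0.12, CRT 5.42 ± 0.22, SRT-like 5.72 ± 0.17 and Nontreated 5.51 ± 0.12 (SD, n = 3 each). The difference of SRT from Nontreated was 0.51 ± 0.17 (SE), 1.42-fold, with a limma p of 0.0142 before and 0.271 after adjustment, and it was 0.24 after centring each sample on its median. CRT and SRT-like differed from Nontreated by -0.091 ± 0.17 and 0.20 ± 0.17 (limma, adjusted p = 0.840 and 0.767). The gene had 21 to 86 molecules per sample and was above background in all 12.

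Itgav, the alpha V integrin chain, had values of 8.67, 9.37 and 9.34 in SRT, 9.13, 8.98 and 9.06 in CRT, and 9.75, 10.14 and 9.46 in SRT-like, against 9.45, 9.32 and 9.17 in Nontreated. All SRT-like samples lay above the Nontreated samples, the lowest of them (9.46) only just above the highest Nontreated sample (9.45), and all CRT samples lay below. SRT averaged 9.13 ± 0.40, CRT 9.06 ± 0.07, SRT-like 9.79 ± 0.34 and Nontreated 9.32 ± 0.14 (SD, n = 3 each). The differences from Nontreated were 0.47 ± 0.23 for SRT-like, -0.26 ± 0.23 for CRT and -0.19 ± 0.23 for SRT (SE; limma, adjusted p = 0.526, 0.620 and 0.764).

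Icam1, the ligand of LFA-1 on activated T cells and antigen-presenting cells, was at 6.94, 7.33 and 7.34 in SRT, at 7.52, 6.96 and 7.83 in CRT, and at 7.34, 8.19 and 7.96 in SRT-like, against 7.18, 7.69 and 7.25 in Nontreated. Every group overlapped Nontreated. The largest difference from Nontreated was that of SRT-like, 0.45 ± 0.29 (limma, adjusted p = 0.636), and those of SRT and CRT were -0.17 ± 0.29 and 0.063 ± 0.29 (SE; limma, adjusted p = 0.832 and 0.951).

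Itgal, the alpha chain of the receptor LFA-1, was at 10.38, 10.45 and 10.91 in SRT, at 10.67, 10.92 and 11.17 in CRT, and at 10.88, 10.88 and 10.56 in SRT-like, against 10.35, 10.65 and 10.72 in Nontreated. The 4 groups overlapped, with at least 841 molecules in each sample. Its differences from Nontreated were 0.0062 ± 0.21 for SRT, 0.35 ± 0.21 for CRT and 0.20 ± 0.21 for SRT-like (SE; limma, adjusted p = 0.994, 0.471 and 0.841).

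Icam1 and Itgav are the adhesion genes for which RefSeq promoter entries of GRCm38.p6 were at hand, and their promoters are shown because their values went partly together across samples (Pearson's r 0.62 over 12 samples, 0.40 within groups). Each is the 250 bases before the annotated start, on the plus strand, chr9:21015690-21015939 for Icam1 and chr2:83724147-83724396 for Itgav. Capitals mark matches to the motifs searched.
Icam1: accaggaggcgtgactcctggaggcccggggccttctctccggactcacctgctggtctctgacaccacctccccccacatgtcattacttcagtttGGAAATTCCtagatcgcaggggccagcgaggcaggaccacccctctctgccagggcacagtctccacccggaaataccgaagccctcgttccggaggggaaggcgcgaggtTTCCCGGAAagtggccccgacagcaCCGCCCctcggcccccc
Itgav: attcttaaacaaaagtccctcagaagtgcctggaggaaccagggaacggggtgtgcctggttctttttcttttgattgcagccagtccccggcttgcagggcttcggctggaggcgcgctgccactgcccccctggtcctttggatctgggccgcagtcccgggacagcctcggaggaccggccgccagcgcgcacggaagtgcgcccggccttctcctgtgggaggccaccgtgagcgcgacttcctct
On both strands, 6 motifs were searched: AP-1 (TGANTCA), NF-kB (GGAANTTCC), STAT (TTCNNNGAA), the interferon-stimulated response element, the dioxin response element (TNGCGTG) and the GC box (GGGCGG). The Icam1 window held an NF-kB match, GGAAATTCC, starting 153 bases before the start, a STAT match, TTCCCGGAA, at 42 bases, and a GC box on the other strand, CCGCCC, at 17 bases. The Itgav window held none of the 6. Among 32851 RefSeq promoter windows of the same length, 0.813% held the NF-kB letters, 7.02% the STAT letters, 32.7% the GC box, 6.75% the AP-1 letters, 2.98% the interferon-stimulated response element and 4.10% the dioxin response element. These matches describe letters and show no binding.

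Set against all probes, the 8 genes gave no calls in any of the 7 comparisons. In CRT against Nontreated, limma called 0 of the 8 genes, beside 3.1% of all probes (24 of 773), and voom called 1, Cd69, as did the other 3 fits named above for that gene. The 3.1% belongs to the main limma fit. The share of all probes called by each fit that called Cd69 is not given here, so whether Cd69 stood out in those fits was not tested. Over the 9 alternatives that left no sample out, the number of all probes called in CRT ran from 0 to 62 of 773. At an unadjusted limma p below 0.05 there were 2 of the 8, Cd69 above and Itgae below Nontreated, beside 15.4% of all probes. The groups did not overlap for 2 of the 8, Cd69 and Itgav, beside 17.6%. The median difference of the 8 genes was -0.014, against 0.26 for all probes.

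In SRT-like against Nontreated, limma called 0 of the 8, beside 0.647% of all probes (5 of 773), and voom called 0. Unadjusted p-values below 0.05 were found for 2 of the 8, Zfp683 and Cd69, beside 11.1%. Groups did not overlap for 3 of the 8, all higher in SRT-like (Itgae, Zfp683 and Itgav), beside 16.3% of probes in either direction and 13.2% in the higher direction. The 8 genes had a median difference of 0.46, against 0.15 for all probes.

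In SRT against Nontreated, limma called 0 of the 8, beside 0% of all probes, and voom called 0. Ahr was the 1 gene of the 8 with an unadjusted p below 0.05, beside 10.9% of probes, and the 1 gene without overlap, beside 13.2%. The median difference was 0.26 for the 8 genes and 0.22 for all probes. For the mean of the 3 modes, limma and voom called 0 of the 8, beside 3.1% of all probes in limma, with Cd69 the 1 gene at an unadjusted p below 0.05 beside 15.3%. No gene of the 8 was free of overlap there, beside 4.92% of probes. All 4 comparisons share the same 3 Nontreated samples.

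The counts over all probes rested on single samples. The count for CRT was 0 without CRT replicate 2 and 58 without Nontreated replicate 3, that for SRT-like was 0 to 3 with 1 sample left out (0 without SRT-like replicate 2 or 3 or Nontreated replicate 2 or 3), and that for the mean of the modes was 2 without CRT replicate 2 and 77 without Nontreated replicate 3. For the 8 genes the same exclusions changed 1 call, that of Cd69 in the mean of the modes.

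**Figure D3:**
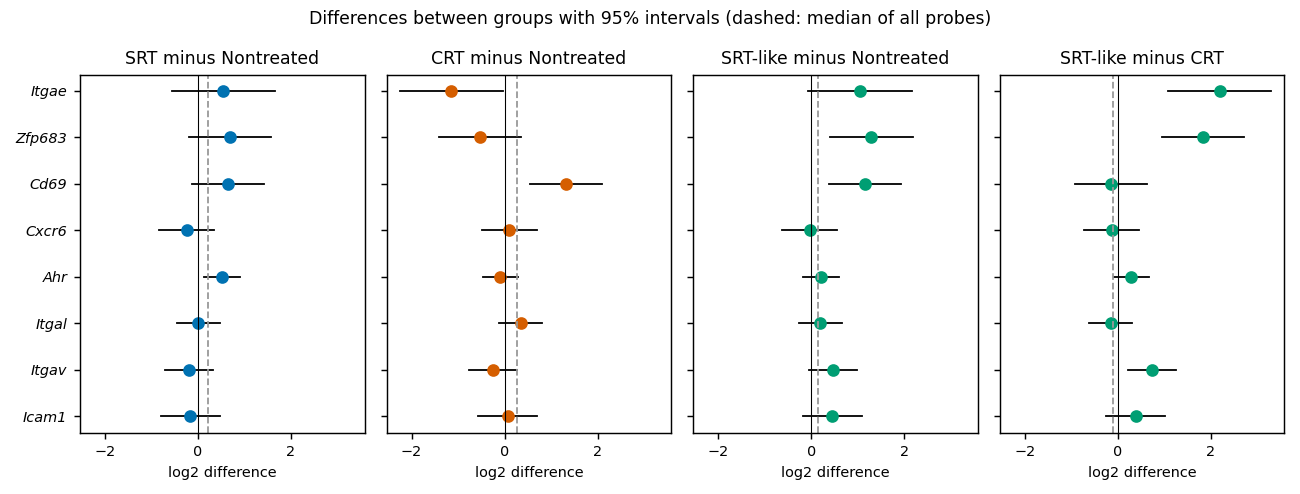
Log2 difference (horizontal axis) of each of the 8 genes from Nontreated in SRT, CRT and SRT-like, and in the last panel that of SRT-like minus CRT, with limma intervals of 95% as bars and the median of all probes as a dashed line. Cd69 lies at 0.65, 1.32 and 1.16 in SRT, CRT and SRT-like, and Itgae at 0.55, -1.15 and 1.05.

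For Itgae and Zfp683, SRT-like had the highest and CRT the lowest group mean, so by that order their difference was the largest of any pair of groups. In SRT-like against CRT, Zfp683 had the smallest unadjusted p of the 773 probes and Itgae the second smallest. Zfp683 was higher in SRT-like by 1.83 ± 0.40 (SE), 3.56-fold, with a 95% interval of 0.95 to 2.71 and a limma p of 0.000877 before and 0.369 after adjustment. Itgae was higher in SRT-like by 2.19 ± 0.50, 4.58-fold, with a 95% interval of 1.08 to 3.31 and a limma p of 0.00124 before and 0.369 after adjustment. All SRT-like samples lay above all CRT samples for both genes, and 2 of the 3 CRT samples were not above background for either. With values under the background level set to that level, the differences were 1.27 for Zfp683 and 1.74 for Itgae. Leaving out 1 sample at a time gave 1.60 to 2.02 for Zfp683 and 1.79 to 2.72 for Itgae, and neither gene was called in any of these fits.

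Itgav was the third gene whose SRT-like samples all exceeded the CRT samples, by 0.73 ± 0.23 (SE), with a limma p of 0.0102 before and 0.369 after adjustment. In SRT-like against CRT, limma called 0 of the 8 genes, beside 0% of all probes, and voom called 0. Unadjusted p-values below 0.05 were found for 3 of the 8, beside 9.83%, and groups did not overlap for the same 3 genes, beside 18.5% in either direction and 5.17% in the higher direction. The other 5 genes differed by -0.15 to 0.39. The median over the 8 genes was 0.34, against -0.11 over all probes.

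**Figure D4:**
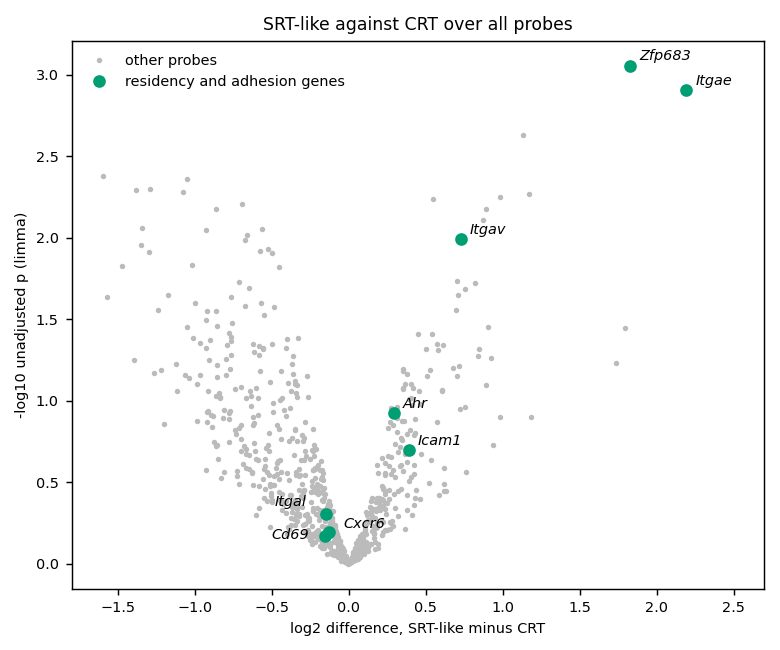
Log2 difference of SRT-like minus CRT (horizontal axis) against the negative log10 of the unadjusted limma p (vertical axis) for the 773 probes, with the 8 genes named. Itgae at 2.19 and Zfp683 at 1.83 lie at the upper right of all probes, and Cd69, Cxcr6 and Itgal lie near 0.

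The background probes also differed between these modes. Their median difference was -0.54 in SRT-like against CRT, and the level that a probe had to exceed was 4.02 to 4.42 in SRT-like samples and 4.35 to 5.02 in CRT samples (log2). Against Nontreated their median difference was 0.56 in SRT (24 of 26 probes higher), 0.74 in CRT (25 of 26) and 0.26 in SRT-like (19 of 26). That is the direction in which Cd69 and, in SRT and SRT-like, Itgae and Zfp683 also stood to Nontreated, as did Klf2, Ccr1 and Cxcr3, and the part of background in these values was not tested.

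SRT against CRT gave 0 calls among the 8 in limma, beside 0% of all probes, and 0 in voom. Unadjusted p-values below 0.05 were found for 3 of the 8, Itgae, Zfp683 and Ahr, all higher in SRT, beside 6.6% of probes. Itgae differed by 1.69 ± 0.50 (SE) with overlap, since CRT replicate 1 lay above SRT replicate 1, and the limma p was 0.00664 before and 0.564 after adjustment. Zfp683 and Ahr differed by 1.22 ± 0.40 and 0.60 ± 0.17 (limma, adjusted p = 0.564 each) and were the 2 of the 8 without overlap, beside 11.4% of probes in either direction and 3.62% in the higher direction. With values under the background level set to that level, the difference was 0.65 for Zfp683 and 1.24 for Itgae, since 2 of the 3 CRT samples were not above background for either. Cd69 differed by -0.67 ± 0.35 (limma, adjusted p = 0.812).

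Between SRT and SRT-like, limma and voom called 0 of the 8, beside 0% of all probes in limma. Itgav was the 1 gene with an unadjusted p below 0.05, beside 5.69%, at -0.66 ± 0.23 (SE; limma, adjusted p = 0.838). Groups did not overlap for 3 of the 8, beside 10.5%: Ahr was higher in SRT by 0.31 ± 0.17, and Zfp683 and Itgav were lower in SRT. Among all probes, 2.85% were lower in SRT without overlap. An F test over the 4 groups called 0 of the 8 in limma, beside 0% of probes, with 5 of the 8 at an unadjusted p below 0.05, beside 11.9%. The smallest adjusted p of that test among the 8 was 0.142, for Zfp683, followed by 0.185 for Itgae and 0.253 for Cd69.

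In order of group means, Itgae and Zfp683 both ran from SRT-like through SRT and Nontreated to CRT. Neighbours in that order overlapped, except SRT and SRT-like for Zfp683. Cd69 ran from CRT through SRT-like and SRT to Nontreated, with every pair of neighbours overlapping. Ahr ran from SRT through SRT-like and Nontreated to CRT, with SRT and SRT-like apart, and Itgav from SRT-like through Nontreated and SRT to CRT, with SRT-like and Nontreated apart. For Icam1 the order was SRT-like, CRT, Nontreated and SRT, for Itgal CRT, SRT-like, SRT and Nontreated, and for Cxcr6 CRT, Nontreated, SRT-like and SRT, all with overlapping neighbours. No difference between neighbours was called for any of the 8 genes.

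Other genes of the same pathways were described from lists. Of 14 integrin chains listed, 4 were measured (Itga6, Itgax, Itgb3 and Itgb8). In every comparison limma called 0 of the 4, beside 0% to 3.1% of all probes. At most 2 of the 4 had an unadjusted p below 0.05, beside 5.69% to 15.4% of all probes. Itgb3, a beta chain that pairs with alpha V, had no overlap with Nontreated in any mode, with differences of 0.57 ± 0.26 for SRT, 0.93 ± 0.26 for CRT and 0.78 ± 0.26 for SRT-like (SE; limma, adjusted p = 0.451, 0.103 and 0.260). Of all probes, 13.2%, 17.6% and 16.3% had no overlap in these comparisons, in either direction. Itgb8, another partner of alpha V, was above background in 0 of 12 samples. The median difference of the 4 chains from Nontreated was 0.40 for SRT, 0.31 for CRT and 0.67 for SRT-like, against 0.22, 0.26 and 0.15 over all probes.

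Of 15 adhesion molecules and ligands, 6 were measured, and limma called 0 of the 6 in every comparison, beside 0% to 3.1% of all probes. At most 2 had an unadjusted p below 0.05, beside 5.69% to 15.4% of all probes. Their median differences from Nontreated were 0.39 for SRT, 0.37 for CRT and 0.25 for SRT-like, against 0.22, 0.26 and 0.15 over all probes. Vcam1 and Sele, adhesion molecules of activated endothelium, were above background in 0 of 12 samples.

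From 27 genes of the residency programme, 12 were measured, and limma called 0 of the 12 in every comparison, beside 0% to 3.1% of all probes. At an unadjusted p below 0.05 there were 4 of the 12 in each of CRT and SRT-like against Nontreated, beside 15.4% and 11.1% of all probes. Both counts include Il15, which was higher there but above background in only 2 of 12 samples. In SRT against Nontreated, Tgfb1 was the 1 of the 12 at that threshold, beside 10.9% of all probes. It was lower in SRT, at -0.51 ± 0.22 (SE; limma, adjusted p = 0.430). Prdm1, which encodes Blimp-1, a partner of Hobit in resident lymphocytes of mice, differed from Nontreated by 0.66 ± 0.21 in SRT-like and 0.47 ± 0.21 in CRT (SE; limma, adjusted p = 0.255 for SRT-like). Il7r, the interleukin-7 receptor of memory cells, differed by 0.97 ± 0.32 in SRT-like (limma, adjusted p = 0.260), and Smad3, a transducer of TGF-beta signals, by 0.80 ± 0.26 in CRT (limma, adjusted p = 0.148). Xcl1, a chemokine that attracts dendritic cells, was higher in SRT-like than in CRT by 1.13 ± 0.28 (limma, adjusted p = 0.369). Its group means were 9.09 for CRT, 9.80 for Nontreated and 10.22 for SRT-like. CRT differed from Nontreated by -0.70 ± 0.28 (limma, adjusted p = 0.280), and Xcl1 was the 1 lower gene among the 4 counted there. The median over the 12 was 0.14 for SRT, 0.17 for CRT and 0.32 for SRT-like, against 0.22, 0.26 and 0.15 over all probes.

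Recirculation genes were described by 9 of 13 listed. Klf2, a transcription factor that drives S1pr1 in circulating T cells, rose in SRT-like by 1.46 ± 0.27 (SE; limma, adjusted p = 0.0421) and in the mean of the 3 modes by 1.14 ± 0.22 (limma, adjusted p = 0.0304). It was the 1 of the 9 called in either comparison, beside 0.647% and 3.1% of all probes. In the other 5 comparisons 0 of the 9 were called, and 1 to 4 had an unadjusted p below 0.05, beside 5.69% to 15.4% of all probes. Without any 1 of SRT-like replicates 2 and 3 and Nontreated replicates 2 and 3, no probe was called in SRT-like against Nontreated, Klf2 included. The same held after centring each sample on its median, after quantile scaling and in a fit on the compared groups alone. Klf2 differed from Nontreated by 1.21 ± 0.27 in SRT and 0.76 ± 0.27 in CRT (limma, adjusted p = 0.150 and 0.200). S1pr1, the egress receptor that CD69 binds, differed by 0.85 for SRT, 0.20 for CRT and 0.50 for SRT-like, and none of these was called. Ccr7, the lymph node homing receptor, was at -1.08 ± 0.28 in CRT against Nontreated (limma, adjusted p = 0.077). The medians over the 9 were 0.85 for SRT, 0.39 for CRT and 0.50 for SRT-like, against 0.22, 0.26 and 0.15 over all probes.

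Besides Cxcr6, 4 of 11 listed chemokine receptors were measured. Cxcr3, the receptor for the interferon-induced chemokines CXCL9 and CXCL10, rose in CRT by 1.23 ± 0.22 (SE; limma, adjusted p = 0.0162), and Ccr1, a receptor of inflammatory CC chemokines, rose there by 1.25 ± 0.24 (limma, adjusted p = 0.0197). Ccr1 also rose in SRT-like by 1.45 ± 0.24 (limma, adjusted p = 0.0421), and both rose in the mean of the modes. That made 2 of the 4 called in CRT, 1 in SRT-like and 2 in the mean of the modes. The shares of all probes called there were 3.1%, 0.647% and 3.1%. Neither was called in CRT without CRT replicate 2 or in a fit on the compared groups alone, since no probe was. The SRT-like call of Ccr1 was lost with the same exclusions and alternative fits as that of Klf2. In the mean of the modes 2 probes in all were called without CRT replicate 2 or after quantile scaling, so at least 1 of the calls of Klf2, Ccr1 and Cxcr3 was lost there. Of the 3 Nontreated samples, 2 had Ccr1 above background. The median of the 4 was 0.50 for SRT, 0.96 for CRT and 0.58 for SRT-like, against 0.22, 0.26 and 0.15 over all probes. The Cxcr6 differences were -0.24, 0.10 and -0.029.

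The probes most like each gene across the 12 samples were sought among the 415 probes above background in every sample, by Pearson's r on the log2 values, with the r of deviations from group means beside it. These are descriptions over 12 samples that share groups, normalization and depth. Cd69 was most like Ifit3/3b (r 0.93, within groups 0.88), Rnf213 (0.92, within groups 0.89) and Mx1 (0.92, within groups 0.81). Zfp683 was like Cd244a (0.88, within groups 0.72) and Plscr1 (0.87, within groups 0.79). Itgae had weaker matches, among them Cbl at 0.78 (within groups 0.51) and Tnfrsf14 at 0.76 (within groups 0.74).

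Ahr was most like Echs1 (r 0.90, within groups 0.71), with Cbl and Tcf7 next at 0.66 each, but 0.27 and 0.38 within groups. Itgal was most like Tbk1 (0.94, within groups 0.93), Fasl and H2-D1, and Cxcr6 was most like Cd3d (within groups 0.95), Cdc42 and Grb2. Itgav was most like Rora (0.91, within groups 0.89), for which Spearman's rho was lower, at 0.72. Icam1 was most like Nr4a1 (0.86, within groups 0.85), Jund (0.86, within groups 0.82) and Il2ra (0.82, within groups 0.75).

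**Figure D5:**
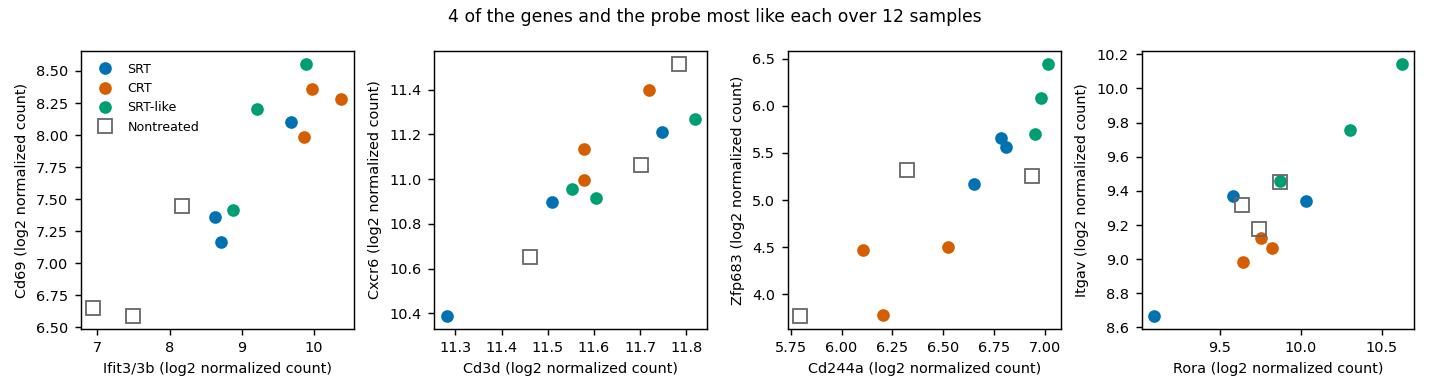
Log2 value of Cd69, Cxcr6, Zfp683 and Itgav (vertical axis) against that of the probe most like each (horizontal axis), with a point per sample coloured by group and open squares for Nontreated. In the Cd69 panel the points follow a line within groups as well as between them (r 0.93 over 12 samples, 0.88 within groups).

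Among the 8 genes themselves, Itgae and Zfp683 had an r of 0.68 over the 12 samples but 0.027 within groups, so their likeness lay in the order of the group means and not in the order of samples inside a group. Itgae and Itgav kept theirs, at 0.67 and 0.56 within groups, and Cd69 and Icam1 had 0.54 and 0.64 within groups. Itgal and Icam1, receptor and ligand, had 0.33 and 0.25 within groups.

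Markers of other cells were measurable beside these genes. The 6 measured macrophage and monocyte probes summed to 7.63 to 7.81 for SRT, 7.83 to 8.33 for CRT and 7.05 to 7.56 for SRT-like, against 7.16 to 7.92 in Nontreated (log2 of the summed linear values). Of these 6, Csf1r and Cd14 exceeded background in 0 of 12 samples. The 7 dendritic and antigen-presenting cell probes summed to 9.99 to 10.6 for SRT, 9.31 to 10.8 for CRT and 9.72 to 9.94 for SRT-like, against 9.31 to 10.2 in Nontreated. The 5 B cell probes summed to 7.96 to 8.26 for SRT, 7.86 to 8.30 for CRT and 7.17 to 7.72 for SRT-like, against 7.78 to 8.16 in Nontreated, with Ms4a1 above background in 0 samples. Single probes of these lists were called. Cd86, a co-stimulatory ligand, rose in CRT by 0.98 ± 0.17 (SE; limma, adjusted p = 0.0151), and Cd80, its relative, rose in SRT-like by 2.13 ± 0.38 (limma, adjusted p = 0.0421). Both also rose in the mean of the modes, and activated T cells express them too. Of the 7 dendritic and antigen-presenting cell probes, 1 was called in CRT, 1 in SRT-like and 2 in the mean of the modes. The shares of all probes called there were 3.1%, 0.647% and 3.1%. Of the 5 B cell probes, Blk was the 1 called in CRT (1.25 ± 0.29; limma, adjusted p = 0.0461), although it was above background in 0 of the 3 CRT samples. The CRT calls of Cd86 and Blk were lost without CRT replicate 2 or in a fit on the compared groups alone, since no probe was called. The SRT-like call of Cd80 was lost with the same exclusions and alternative fits as that of Klf2. Macrophage and B cell sums were lower in every SRT-like sample than in any CRT sample. Sums of the dendritic and antigen-presenting, CD4 and regulatory T, natural killer, and tumour and stroma probes overlapped between these modes. Icam1, Itgav and Itgal are also expressed by myeloid cells, and the part of other cells in the values of the 8 genes was not tested.

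The remaining marker lists were smaller. The 3 probes for CD4 and regulatory T cells summed to 9.60 to 10.2 for SRT, 9.73 to 10.4 for CRT and 10.0 to 10.4 for SRT-like, against 9.76 to 10.2 in Nontreated. These sums follow Il2ra, whose group means were 9.77 to 10.2, against at most 3.87 for Cd4 and 4.78 for Foxp3. Cd4 was above background in 1 of 12 samples and Foxp3 in 8. Natural killer cells were marked by Ncr1, above background in 3 of 12 samples, and Klrk1, which activated CD8 T cells also express. The 3 tumour and stroma probes summed to 6.76 to 7.45 for SRT, 6.61 to 7.03 for CRT and 6.64 to 7.18 for SRT-like, against 6.56 to 6.70 in Nontreated, with Pdgfrb above background in 0 samples.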

How the data were processed

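The sorted cells, lysed at 1000 to 5000 per microlitre, were read on the nCounter without amplification, per the labels' protocols. The table is on a log2 scale and, per the labels, the authors used ROSALIND to normalize it. No source used here gives its version, background handling or reference probes. Back on the linear scale, 100% of a sample's deposited values were whole multiples of a common step (tolerance 0.01), which gave the molecules used for depth, counting intervals and voom.

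The test was limma 3.58.1 in R 4.3.3, lmFit and eBayes without a trend on all 12 samples, 2-sided, adjusted over 773 probes at 0.05, and it was tested on simulated data. No probe was filtered out. Of the probe names, 756 matched RefSeq symbols of GRCm38.p6, and all 8 genes did. The genes, lists and background probes were chosen with earlier results of these data known. The 8 genes are named throughout. Other genes are named when called, or among the 4 smallest p-values of their list in a contrast with Nontreated, or among the 3 probes most like one of the 8. Xcl1 in SRT-like against CRT, S1pr1, Itgb8, Vcam1, Sele and individual cell markers were named after their values were seen. Alternatives covered centring, quantile scaling, voom, sample weights, a trended robust fit, probes above background, a floor at background, fits on the compared groups, a block by run of sample numbers, the 9 irradiated samples as 1 group, and leaving out each sample. Results for a few other genes are not reported here.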

Additional observations from a re-analysis of the deposited data

Results flagged for a closer look

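Itgav was singled out because all SRT-like samples lay above and all CRT samples below the Nontreated samples. The lowest SRT-like sample (9.458) stood only just above the highest Nontreated sample (9.454). Of all probes, 16.3% had no overlap in SRT-like against Nontreated and 17.6% in CRT, in either direction. The share with both patterns opposed is not given here, so the pattern is not shown to be particular to Itgav. For Itgav the difference of SRT-like minus CRT was 0.73 ± 0.23 (SE), with an adjusted p of 0.369 in limma, so the opposed directions did not pass the test over all probes. Whether each direction differs from Nontreated was tested separately, with adjusted p-values of 0.526 for SRT-like and 0.620 for CRT in limma.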

How the results depend on the processing

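No paired analysis was possible because the labels number the samples from 1 to 12 and no samples of different groups share a number. Of 56 differences of the 8 genes, 37 kept their sign under every alternative, and the largest that turned was Zfp683 in CRT, at -0.53. Setting low values to the background level turned it to 0.022. Centring each sample on its median turned Itgal in SRT to -0.27, Cxcr6 and Icam1 in CRT to -0.22 and -0.26, and Cxcr6 in SRT-like against CRT to 0.014. In the mean of the modes it turned Itgae, Ahr, Itgal, Itgav and Icam1 to -0.11, -0.052, -0.074, -0.25 and -0.14. Quantile scaling turned Itgal to -0.016 in SRT and -0.0055 in SRT-like, Icam1 in CRT to -0.24, and in the mean of the modes Itgae, Ahr, Itgav and Icam1 to -0.13, -0.027, -0.13 and -0.12. With voom, Cxcr6 and Icam1 in CRT were -0.044 and -0.075, Itgal in SRT was -0.000545, and Itgae, Itgav and Icam1 in the mean of the modes were -0.032, -0.10 and -0.015. Sample weights turned Itgal in SRT to -0.017, Icam1 in CRT to -0.11, and Itgae and Itgav in the mean of the modes to -0.10 and -0.019. The block by sample numbers turned Cxcr6 in CRT to -0.000647. The causes were not tested.

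With 1 sample left out, signs turned within these ranges: in the mean of the modes -0.064 to 0.083 for Itgav, -0.10 to 0.31 for Itgae, -0.27 to 0.16 for Cxcr6 and -0.023 to 0.75 for Zfp683. In SRT they were -0.16 to 0.11 for Itgal and -0.31 to 0.038 for Itgav, in SRT-like -0.24 to 0.19 for Cxcr6, and in CRT -0.14 to 0.30 for Icam1, -0.11 to 0.32 for Cxcr6 and -0.18 to 0.035 for Ahr. Between modes they were -0.055 to 0.30 for Itgav in SRT against CRT, -0.41 to 0.0061 for Cxcr6 in SRT against SRT-like, and -0.40 to 0.17 for Cd69 in SRT-like against CRT.

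Cd69 was the 1 gene of the 8 called by any alternative: in CRT by voom, the trended robust fit, probes above background only and the block by sample numbers, and in the mean of the modes by the trended robust fit, probes above background only and without SRT-like replicate 1. Its adjusted p in CRT was 0.0184 in the trended robust fit, 0.0306 with probes above background, 0.0320 with the block, 0.0539 with sample weights and 0.125 after quantile scaling, and 0.0655 to 0.265 with 1 sample left out. The difference was above 0 in every fit. Over the alternatives that left no sample out, all probes called ran from 0 to 62 in CRT and from 2 to 64 in the mean of the modes. Counts of all probes are not given singly for the fits that called Cd69, so whether it stood out in them was not tested.

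Calls over all probes were, in CRT, 12 after centring, 13 after quantile scaling, 62 with sample weights and 0 on the compared groups alone, and 0 to 58 with 1 sample left out. In SRT-like they were 0 after centring, after quantile scaling and on the compared groups alone, 15 with sample weights, 8 in the trended robust fit, 9 with probes above background, and 0 to 3 with 1 sample left out. In SRT they were 12 with voom, 4 in the trended robust fit, 5 with probes above background, 3 with the block, and 0 to 1 with 1 sample left out. In the mean of the modes they were 11 after centring, 2 after quantile scaling, 64 with sample weights, 8 with the 9 irradiated samples as 1 group, and 2 to 77 with 1 sample left out, where the members called were 0 to 1. Depth limits Itgae and Zfp683 most, with as few as 10 and 8 molecules in a sample.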
